A study of Homo sapiens with 6 samples.

Results

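The 10 genes described here belong to the antioxidant pathway controlled by the transcription factor NRF2. They were taken by gene ID, not by level, out of 54532 IDs listed in each library, but the list was chosen with earlier results of these data known. The IDs are Ensembl mouse IDs, and the names used are those Ensembl gives them in mouse: Nfe2l2 (ENSMUSG00000015839), Keap1 (ENSMUSG00000003308), Slc7a11 (ENSMUSG00000027737), Gclc (ENSMUSG00000032350), Gclm (ENSMUSG00000028124), Txnrd1 (ENSMUSG00000020250), Srxn1 (ENSMUSG00000032802), Nqo1 (ENSMUSG00000003849), Hmox1 (ENSMUSG00000005413) and G6pdx (ENSMUSG00000031400). RNA was sequenced in 6 libraries, 2 labelled sh4, 2 labelled sh1 and 2 labelled NC. All are labelled as A549, an established human lung adenocarcinoma line, and the series title names a knockdown of DSTY. The labels do not spell out sh4, sh1 or NC, and sh4 and sh1 are read here as the knockdown groups and NC as their control. Human cells are labelled, yet 0 of the IDs are human, and the organism of the RNA is not settled by the sources used here. Nothing in the labels says whether the libraries of a group came from separate cultures, so p-values measure only the spread between these libraries.

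NRF2, the product of Nfe2l2, binds antioxidant response elements in front of genes for glutathione synthesis, thioredoxin reduction, quinone reduction, heme breakdown and NADPH supply. KEAP1 holds NRF2 in the cytoplasm and hands it to a ubiquitin ligase, so that NRF2 protein is short-lived until oxidants or electrophiles modify KEAP1. NRF2 is therefore controlled largely at the level of its protein, which RNA does not show. A549 cells are known for an inactivating KEAP1 mutation and for constantly active NRF2, with abundant NQO1. That is background on the labelled line, and whether these libraries share it was not tested. Nqo1 had the lowest mean level of the 10 genes in every group here, at percentile 25.2 of all IDs tested in NC.

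Values are FPKM, fragments per kilobase of gene scaled per library, as the authors deposited them. Their scaling followed median-of-ratios size factors and not total reads. Whole reads recovered from these values came to between 14999786 and 18011798 per library. Each of the 10 genes was at or above 1 FPKM in 6 of 6 libraries, with between 60 and 8742 reads, so none was lost to the filter on low values. Fold changes are differences of log2(FPKM + 1), tested with limma over 12755 IDs and called at a Benjamini-Hochberg adjusted p below 0.05. The spread between the 2 libraries of a group was between 0.676% and 15.0% of the mean for these genes. The targeted gene and markers of the cell type were not analysed here, because neither the files nor the human reference tables name the other IDs. In bulk RNA, a change in the cells present and a change in RNA per cell cannot be told apart.

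Against NC, 7 of the 10 genes were higher and 2 lower in sh4, and 7 were higher and 2 lower in sh1. Among all IDs tested, 68.1% were called in sh4 (35% higher, 33.2% lower) and 65.6% in sh1 (32.4% higher, 33.2% lower). Most IDs of these libraries thus passed the same test, and a call alone does not set a gene apart. The sizes were larger in the list than over all IDs, with a median absolute log2 fold change of 0.73 against 0.37 in sh4, and of 0.84 against 0.36 in sh1. Because the list was chosen with earlier results of these data known, these medians only describe it and test nothing about it. Keap1, Gclm and G6pdx rose by at least 1 log2 unit in sh4, while 10.1% of all IDs changed by that much in either direction. In sh1 it was Nqo1, Hmox1 and G6pdx that reached 1 log2 unit, with 9.97% of all IDs. These sets depended on the setting. With a pseudocount of 0.1, or by voom on the recovered reads, Nqo1 in sh4 (16.8% and 17.8% of all IDs) and Gclm in sh1 (16.1% and 16.9%) reached it too. Keap1 in sh4 did not reach it without NC replicate 1 or without sh4 replicate 1 (0.98 for both), and Gclm in sh1 did without sh1 replicate 1 (1.00). The libraries of sh4 and NC did not overlap for any of the 10 genes, nor did those of sh1 and NC, and the same held for 82.7% and 82.3% of all IDs. Both comparisons use the same 2 NC libraries.

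**Figure D1:**
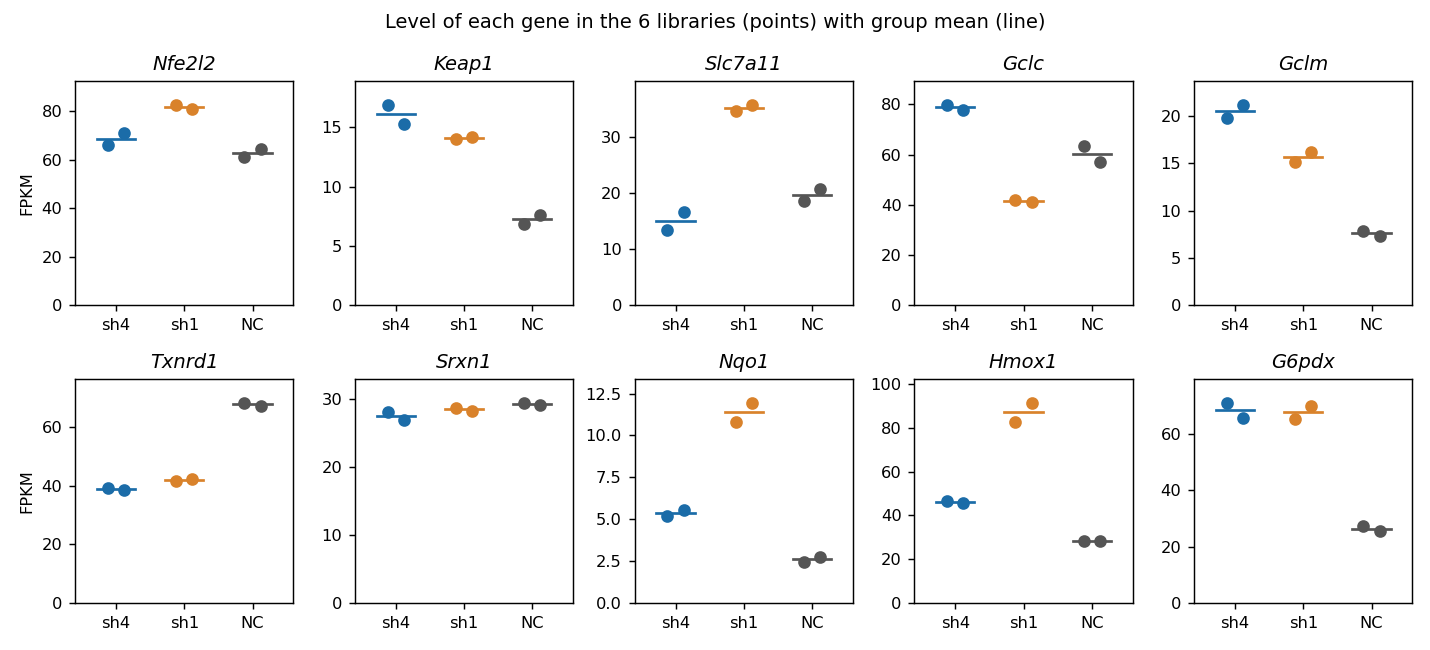
FPKM (vertical axes, from 0) of each gene in the 2 libraries of sh4, sh1 and NC (points), with the group mean (line). Txnrd1 is highest in NC, Srxn1 stays between 26.8 and 29.4 FPKM, and Slc7a11 and Gclc have their highest and lowest group in opposite order.

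The regulators were both higher in the knockdown groups, Keap1 by far more than Nfe2l2. Nfe2l2 encodes NRF2 itself. It stood at 66.2 and 71.0 FPKM in sh4, 82.5 and 80.8 FPKM in sh1, and 61.2 and 64.5 FPKM in NC. Its sh4 libraries lay just above NC and its sh1 libraries above both. The log2 fold change was 0.13 in sh4 (SE 0.05, adjusted p = 0.0332) and 0.37 in sh1 (SE 0.05, adjusted p = 1.31e-05), by limma. In sh4 81.9% of all IDs changed by as much or more, and in sh1 48.3%. The call in sh4 was lost without sh4 replicate 2 (0.08, adjusted p = 0.194) and without NC replicate 1 (0.09, adjusted p = 0.213). It was also lost without either sh1 library (adjusted p = 0.0603 and 0.0607), with no filter (0.119) and with the variance trend on mean FPKM (0.0677).

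Keap1, whose protein marks NRF2 for degradation, had 16.9 and 15.3 FPKM in sh4, 14.0 and 14.2 FPKM in sh1, and 6.87 and 7.63 FPKM in NC. Every library of sh4 and sh1 was above every NC library. The group means were 2.22 times that of NC in sh4 and 1.95 times in sh1. Against NC the log2 fold change was 1.05 in sh4 (SE 0.07, adjusted p = 1.8e-08) and 0.87 in sh1 (SE 0.07, adjusted p = 9.68e-08), by limma. Within a library, the level of Nfe2l2 was 3.93 and 4.64 times that of Keap1 in sh4, 5.89 and 5.69 times in sh1, and 8.91 and 8.45 times in NC, in FPKM. The ratio of NRF2 transcript to KEAP1 transcript was thus lowest in sh4 and highest in NC, with no overlap between groups. The ratios between genes are given as values, with no test.

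The 3 genes of glutathione synthesis moved in different ways. Slc7a11 encodes the transporter subunit xCT, which imports cystine for glutathione. It had 13.4 and 16.5 FPKM in sh4, 34.5 and 35.6 FPKM in sh1, and 18.5 and 20.7 FPKM in NC. The sh1 libraries were far above NC and the sh4 libraries below it. Its log2 fold change was -0.37 in sh4 (SE 0.09, adjusted p = 0.00686) and 0.81 in sh1 (SE 0.09, adjusted p = 8.49e-05), by limma. The sh4 libraries differed more from each other than those of any other gene in any group (SD 15.0% of the mean). Without sh4 replicate 1 the fall in sh4 was -0.23 (adjusted p = 0.00723), and with no filter its adjusted p was 0.064.

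Gclc encodes the catalytic subunit of glutamate-cysteine ligase, the rate-limiting enzyme of glutathione synthesis. Its level was 79.7 and 77.8 FPKM in sh4, 41.7 and 41.2 FPKM in sh1, and 63.3 and 57.0 FPKM in NC. The order was the reverse of that of Slc7a11, with sh4 above NC and sh1 below it. The log2 fold change was 0.39 in sh4 (SE 0.05, adjusted p = 1.93e-05) and -0.52 in sh1 (SE 0.05, adjusted p = 1.07e-06), by limma. In sh4 48.7% of all IDs changed by as much or more, and in sh1 34.1%. Both calls were made under every alternative run, with a largest adjusted p of 0.00702 in sh4 and 0.00276 in sh1.

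Gclm encodes the modifier subunit of the same ligase, which lowers the enzyme's need for substrate and its inhibition by glutathione. Here both groups were above NC, with 19.8 and 21.2 FPKM in sh4, 15.2 and 16.2 FPKM in sh1, and 7.81 and 7.37 FPKM in NC. Its log2 fold change was 1.32 in sh4 (SE 0.06, adjusted p = 4.49e-10) and 0.96 in sh1 (SE 0.06, adjusted p = 8.21e-09), by limma. In sh4 4.76% of all IDs changed by as much, and in sh1 11.6%. The level of the catalytic subunit was 4.02 and 3.68 times that of the modifier in sh4, 2.74 and 2.55 times in sh1, and 8.10 and 7.73 times in NC. In both knockdown groups the transcripts of the subunits were therefore closer in level than in NC. In sh4 this came with a higher level of both, and in sh1 with a lower Gclc and a higher Gclm. The level of Slc7a11 was 0.168 and 0.212 times that of Gclc in sh4, 0.828 and 0.865 times in sh1, and 0.292 and 0.364 times in NC.

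**Figure D2:**
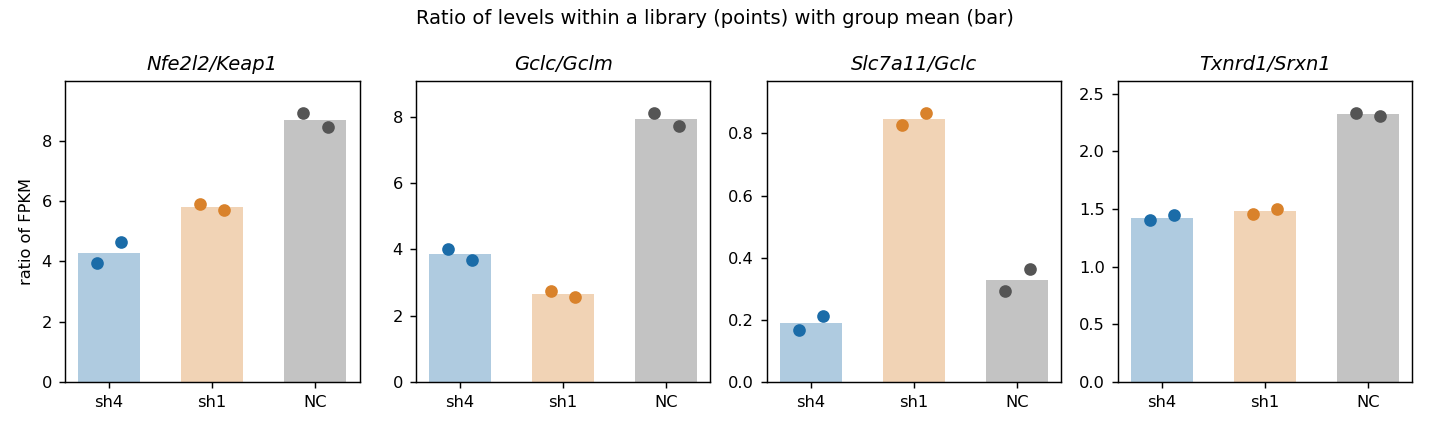
Ratio of the FPKM of 2 genes within each library (points, vertical axes from 0) for sh4, sh1 and NC, with the group mean (bars). Nfe2l2/Keap1 lies between 3.93 and 5.89 in sh4 and sh1 and above 8 in NC, while Slc7a11/Gclc is highest in sh1.

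Of the thioredoxin system, Txnrd1 fell in both groups and Srxn1 was not called in either. Txnrd1 encodes the cytosolic thioredoxin reductase, a selenoprotein that keeps thioredoxin reduced with NADPH. It had 39.2 and 38.7 FPKM in sh4, 41.8 and 42.2 FPKM in sh1, and 68.4 and 67.3 FPKM in NC. The libraries of each group lay close together, and both NC libraries were far above the other 4. Its log2 fold change was -0.79 in sh4 (SE 0.04, adjusted p = 2.01e-09) and -0.68 in sh1 (SE 0.04, adjusted p = 7.08e-09), by limma. Txnrd1 was the gene of this list with the highest level in NC, and the fifth and the fourth in order of level in sh4 and sh1.

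Srxn1 encodes sulfiredoxin, which returns overoxidized peroxiredoxins to use. Its levels were 28.1 and 26.8 FPKM in sh4, 28.7 and 28.2 FPKM in sh1, and 29.4 and 29.1 FPKM in NC. The groups did not overlap, but the highest group mean was only 1.07 times the lowest. The log2 fold change was -0.09 in sh4 (95% interval -0.21 to 0.03, adjusted p = 0.155) and -0.04 in sh1 (95% interval -0.16 to 0.08, adjusted p = 0.532), by limma. Changes smaller than those bounds could not be told from 0 here. The level of Txnrd1 was 1.40 and 1.45 times that of Srxn1 in sh4, 1.46 and 1.5 times in sh1, and 2.33 and 2.31 times in NC.

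Nqo1 and Hmox1 rose in both groups, each more in sh1 than in sh4. Nqo1 encodes a quinone reductase that passes electrons to quinones in pairs and is widely used as a readout of NRF2. It was the lowest of the 10 genes in every library, at 5.19 and 5.54 FPKM in sh4, 10.8 and 12.0 FPKM in sh1, and 2.45 and 2.77 FPKM in NC. Its mean level stood at percentile 42.5 of all IDs tested in sh4, 63.8 in sh1 and 25.2 in NC. Its group means were 2.06 times that of NC in sh4 and 4.36 times in sh1. The log2 fold change was 0.82 in sh4 (SE 0.10, adjusted p = 7.88e-06) and 1.78 in sh1 (SE 0.10, adjusted p = 4.27e-09), by limma, on a scale that understates changes at so low a level. In sh4 16.7% of all IDs changed by as much or more, and in sh1 2.16%. The values rest on 149 and 158 reads in sh4, 280 and 327 in sh1, and 60 and 66 in NC. Exact 95% Poisson intervals, which cover counting error only, ran from 45.8 to 77.2 reads and from 51.0 to 84.0 reads for the NC libraries. They were separate from those of the sh4 libraries, of which the lower began at 126.0 reads.

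Hmox1 encodes heme oxygenase, which breaks heme down to biliverdin, iron and carbon monoxide. It had 46.7 and 45.5 FPKM in sh4, 82.8 and 91.6 FPKM in sh1, and 28.5 and 28.2 FPKM in NC. Levels were highest in sh1, where Hmox1 led the list, and lowest in NC. By limma, its log2 fold change was 0.68 in sh4 (SE 0.06, adjusted p = 2.48e-07) and 1.59 in sh1 (SE 0.06, adjusted p = 6.69e-11). In sh4 23.5% of all IDs changed by as much, and in sh1 3.03%. Hmox1 is also induced by factors other than NRF2, and the RNA does not tell these apart.

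G6pdx encodes glucose-6-phosphate dehydrogenase, the entry enzyme of the oxidative pentose phosphate pathway and a source of NADPH for both the glutathione and the thioredoxin system. It had 71.1 and 65.7 FPKM in sh4, 65.3 and 69.9 FPKM in sh1, and 27.2 and 25.5 FPKM in NC. The libraries of sh4 and sh1 overlapped, and all 4 were above NC. Its log2 fold change was 1.34 in sh4 (SE 0.06, adjusted p = 3.02e-10) and 1.33 in sh1 (SE 0.06, adjusted p = 2.72e-10), by limma. In sh4 4.48% of all IDs changed by as much, and in sh1 4.92%.

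The direct comparison of sh4 with sh1 called 3 of the 10 genes higher and 5 lower in sh4. Among all IDs, 56% were called, 29.5% higher and 26.4% lower. After rescaling the libraries to the same FPKM sum, 3 genes were higher and 3 lower, and over all IDs 4858 were higher and 2392 lower. The median absolute log2 difference was 0.31 for the 10 genes and 0.27 over all IDs. For 9 of the 10 genes the libraries of sh4 and sh1 did not overlap, as for 78% of all IDs. Slc7a11 was lower in sh4 (-1.18, SE 0.09, adjusted p = 1.22e-05), and on this scale only this gene passed 1 log2 unit, which 6.34% of all IDs did. Nqo1 passed it as well with a pseudocount of 0.1 (-1.07, with 10.1% of all IDs) and by voom on the recovered reads (-1.09, with 10.6%). Without sh1 replicate 1 the value of Nqo1 was -1.02. Gclc passed it after rescaling to the same FPKM sum (1.03, with 6.55% of all IDs). Nqo1 (-0.96, SE 0.10, adjusted p = 2.95e-06) and Hmox1 (-0.90, SE 0.06, adjusted p = 2.74e-08) were also lower in sh4. Gclc was higher in sh4 (0.91, SE 0.05, adjusted p = 8.59e-09), and so was Gclm (0.37, SE 0.06, adjusted p = 0.000122). These p-values are from limma's one fit over 6 libraries, so the spread within NC also enters them. The groups compared held 2 libraries each.

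Smaller differences between sh4 and sh1 depended more on the fit. Nfe2l2 was lower in sh4 (-0.25, SE 0.05, adjusted p = 0.000641), a call lost after rescaling to the same FPKM sum (-0.13, adjusted p = 0.0677). Keap1 was higher in sh4 (0.18, SE 0.07, adjusted p = 0.0395), and its call was lost without sh4 replicate 1 (0.11, adjusted p = 0.258) and without either sh1 library (adjusted p = 0.151 and 0.119). It was lost as well with no filter (0.156) and with the trend on mean FPKM (0.0764), and the difference was 0.29 after rescaling to the same FPKM sum. Txnrd1 was lower in sh4 (-0.11, SE 0.04, adjusted p = 0.0359), but the sign turned after rescaling to the same FPKM sum (0.01, adjusted p = 0.857). Its call was lost in 5 of the 6 fits that left out 1 library, those without NC replicate 1 or 2, sh1 replicate 1 or 2, or sh4 replicate 2, with adjusted p between 0.0501 and 0.182. It was lost with total-read scaling (-0.03, adjusted p = 0.553) and with the trend on mean FPKM (0.0543) too. For G6pdx the difference was 0.02 (95% interval -0.11 to 0.14, adjusted p = 0.832) and for Srxn1 -0.05 (95% interval -0.17 to 0.07, adjusted p = 0.457), in limma's test.

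**Figure D3:**
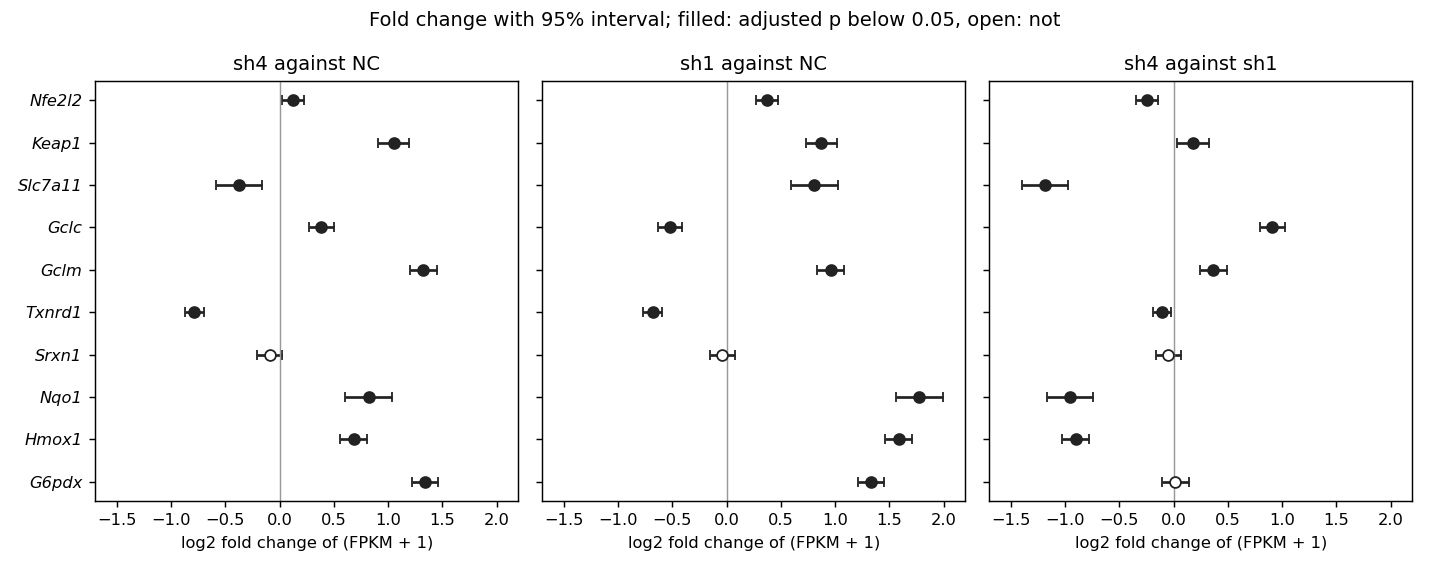
Log2 fold change of (FPKM + 1) with its 95% interval (horizontal axes) for each gene in sh4 against NC, sh1 against NC and sh4 against sh1. Filled points passed an adjusted p of 0.05. Gclc and Slc7a11 lie on opposite sides of 0 in sh4 and sh1, and Srxn1 is open in every comparison.

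**Figure D4:**
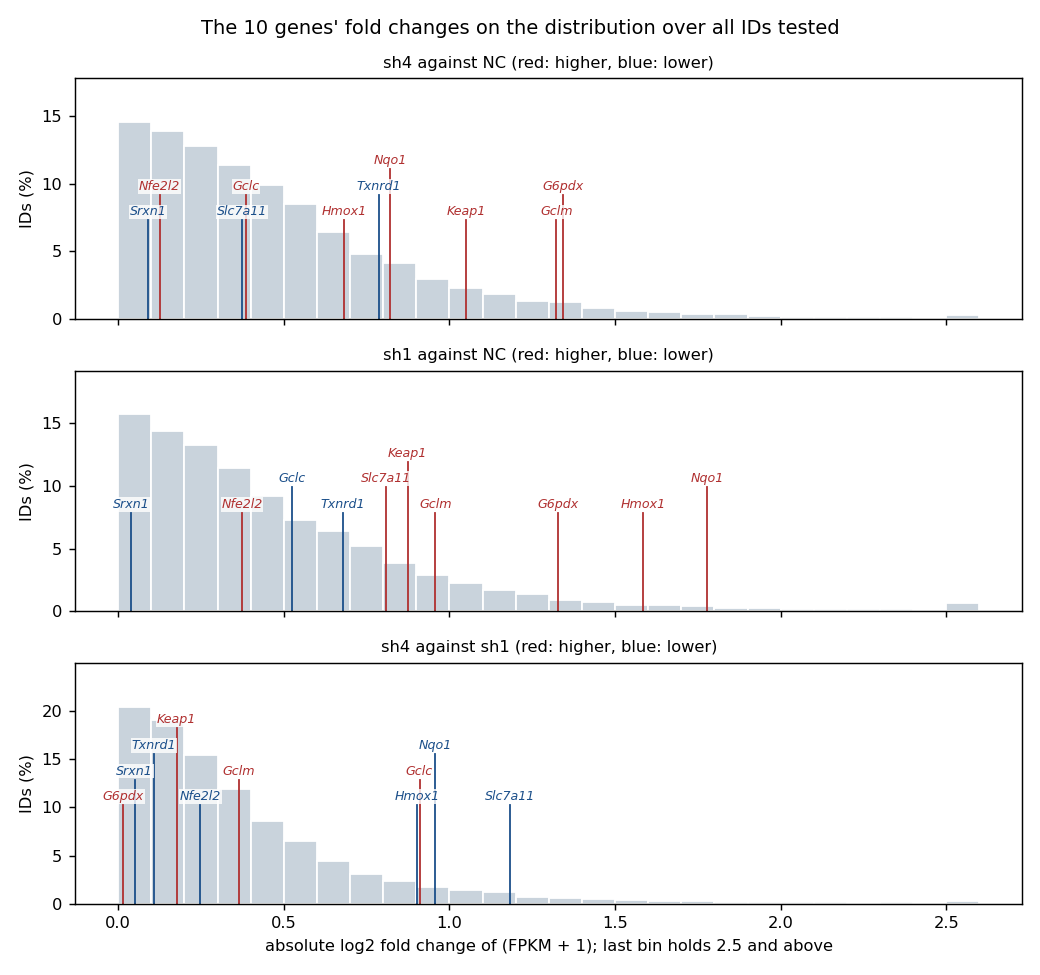
Share of all 12755 IDs tested (bars, in %) by absolute log2 fold change, with the 10 genes marked (red higher, blue lower). Nqo1, Hmox1 and G6pdx stand in the right tail in sh1, Gclm and G6pdx in sh4, while Srxn1 stays near 0.

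The genes differed widely in level. Ranked by mean FPKM, sh4 was led by Gclc (78.8 ± 1.3 FPKM), sh1 by Hmox1 (87.2 ± 6.2 FPKM) and NC by Txnrd1 (67.9 ± 0.8 FPKM; SD, n = 2 each). Nfe2l2 came second in each group. Nqo1 came last in each. Neighbours in this order whose libraries overlapped were Nfe2l2 with G6pdx and Keap1 with Slc7a11 in sh4, none in sh1, and Nfe2l2 with Gclc and Gclm with Keap1 in NC. The FPKM sum over all IDs was 332668 and 323452 in sh4, 355122 and 359260 in sh1, and 331258 and 345672 in NC. With no allowance for these totals, the summed level of the 10 genes was 386 and 384 FPKM in sh4. It was 417 and 432 FPKM in sh1, and 314 and 310 FPKM in NC. In sh4 Gclc made up 20.6% and 20.3% of that sum, in sh1 9.54% in replicate 2 and 10% in replicate 1, and in NC 20.2% and 18.4%. The share of Txnrd1 was 10.1% in both sh4 libraries, 9.78% in sh1 replicate 2 and 10% in replicate 1, and 21.8% and 21.7% in NC. G6pdx held 18.4% and 17.1% in sh4, 15.6% and 16.2% in sh1, and 8.68% and 8.22% in NC.

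Over the 6 libraries, which amount to 3 group levels and share one scaling, the profiles of some genes ran close together. On the log2(FPKM + 1) scale, the Pearson correlation was 1.00 for Nqo1 with Hmox1 and 0.98 for Keap1 with both Gclm and G6pdx. It was -0.99 for Txnrd1 with Keap1, Gclm and G6pdx, and -0.98 for Gclc with Slc7a11. These values describe the 6 libraries only.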

How the data were processed

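The deposited FPKM values, 1 column per library, were computed by the authors. HISAT2 2.0.5 and the build hg18 are named per the submitters' processing notes; counter, annotation and filters: not given in the sources used here. Whole reads and lengths rebuilt the values of 25747 of the 25747 IDs above 0, within 1e-06 FPKM plus a share of 1e-07 of each value, and the library denominators followed median-of-ratios size factors. limma 3.58.1 in R 4.3.3 was run on log2(FPKM + 1) for IDs that reached 1 FPKM in 2 or more libraries, in one fit over 6 libraries with 3 residual degrees of freedom, robust variances and a variance trend on mean reads, and p-values were Benjamini-Hochberg adjusted over all IDs. The procedure was run on simulated data. For limma, few of the simulated IDs changed, by the same folds in sh1 and sh4. Those data thus do not cover changes as broad as these, nor a difference between sh4 and sh1. All 10 genes were named by rule. The genes and lists were chosen with earlier results of these data known. Of 60 symbols in 3 wider pathway lists, 0 could be matched to an ID, since the reference tables used are human, so these lists were not analysed here. No sequence is shown for the same reason.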

Additional observations from a re-analysis of the deposited data

Results flagged for a closer look

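In limma's direct test of sh4 against sh1, with 2 libraries in each group, the 2 effects against NC differed for 8 of the 10 genes, beside 56% of all IDs. The difference, sh4 minus sh1, was -0.25 for Nfe2l2, 0.18 for Keap1, -0.96 for Nqo1, 0.91 for Gclc, 0.37 for Gclm, -0.11 for Txnrd1, -0.90 for Hmox1 and -1.18 for Slc7a11, in log2 units. Gclc and Slc7a11 were called in opposite directions in sh4 and sh1, and in opposite directions to each other within each group. For Nfe2l2, Keap1 and Txnrd1 the difference was under 0.3 log2 units and its call was lost in at least 1 other fit. Culture, handling and library preparation cannot be told apart from the groups, since the labels give no batch.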

How the results depend on the processing

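In sh1 against NC, 9 genes were called under every alternative except the added minimum of 1 log2 unit. That minimum left 3 genes in sh4 against NC, 3 in sh1 against NC and 1 in sh4 against sh1, beside 10.1%, 9.97% and 6.34% of all IDs. Otherwise 7 to 9 genes were called in sh4 against NC and 6 to 8 in sh4 against sh1. Counts over all IDs moved too. With no filter, 4310 of 25747 IDs were higher and 4225 lower in sh4 against NC, and 3285 and 3040 in sh4 against sh1. With the filter, of 12755 IDs, 4458 were higher and 4230 lower in sh4 against NC, and 3766 and 3373 in sh4 against sh1. Fits without 1 library leave a group with 1 library, and that library is assumed to vary like the others. No drop in calls in these fits is read as a trait of the 10 genes. Over 420 values of single genes, direction and call held in 395, the call was lost in 20 and the sign turned in 5, all 5 in sh4 against sh1. The turned values were 0.0125 for Txnrd1 with the same FPKM sum, and 0.0281 and 0.0689 for Srxn1 with total-read scaling and with the same FPKM sum. For G6pdx they were -0.0331 without sh1 replicate 1 and -0.0399 without sh4 replicate 1, in a range of -0.0399 to 0.0714 over the fits without 1 library. None of the turned values was past the threshold, and the cause was not tested. With the replicate block, 9, 9 and 8 genes were called in sh4 against NC, sh1 against NC and sh4 against sh1. Of 12755 IDs it called 4532 higher and 4304 lower, 4196 and 4307, and 3874 and 3471, in the same order. Deviations of same-numbered libraries from their group means were correlated over all IDs tested. The correlation was -0.01 for sh1 with NC, 0.12 for sh4 with NC and -0.02 for sh4 with sh1. Over all IDs the numbers thus do not show a pairing, and for single genes it was not tested. For Slc7a11, replicate 2 was above replicate 1 in each group. With the block its adjusted p by limma was 1.47e-05 in sh4 against NC, beside 0.00686 without the block. Reads set the precision least well for Nqo1, with 60 and 66 reads in NC.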
